A study of Mus musculus with 12 samples.

Results

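Mouse kidney tubuloids that received myoglobin together with dexamethasone were compared with tubuloids that received myoglobin without it. The comparison takes 8 of the 12 RNA-seq libraries of the series, 4 per treatment, and every gene that reached 10 in 4 or more of the 12 columns of values. These are 14558 of the 20819 genes in the deposited table. Tubuloids are clusters of epithelial cells cultured in Matrigel after digestion of the kidney cortex, here from 4 wildtype mice. All 8 libraries had 12 h of myoglobin, the haem protein of muscle that serves as the injuring agent in this design, and 4 of them had 100 nM dexamethasone, a synthetic glucocorticoid, as well. The remaining 4 libraries had vehicle for the same time, and their values are given as the level without either agent. No group had dexamethasone without myoglobin, so what dexamethasone changes in uninjured tubuloids was not measured. Libraries are numbered 1 to 4 within a treatment, with no statement that a number stands for a mouse or a culture, so the spread behind each p-value is that between libraries and may be technical.

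Glucocorticoids cross the cell membrane and bind the receptor encoded by Nr3c1, which then moves from its chaperones in the cytosol to the nucleus. As a dimer the receptor binds a DNA motif made of paired hexamers and raises transcription of nearby genes, and it can hold back inflammatory genes driven by NF-kB and AP-1. In the distal nephron corticosteroids raise sodium uptake through the epithelial sodium channel, and in many tissues they reset the circadian clock and slow the division of some cells.

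Each deposited value is a read count scaled to the library's depth and rounded, called a normalised read count below. They summed to 5.32 to 5.35 M per library with myoglobin and to 5.34 to 5.73 M with dexamethasone added. Replicate 4 with dexamethasone stood apart: its estimated reads before scaling were 3.25 M against 4.86 to 5.93 M in the other 11 libraries, 2179 genes were listed at 0 in it against 1051 to 1544, and its highest value was 5857 against 4592 to 4842. Results are therefore given with all libraries and, where the count moved by over 1.5 times or a call was lost, without that library. The labelled cell type is renal tubular epithelium. Of its proximal tubule markers, 27 of 51 passed the low-value filter, and those that define mature proximal tubule were close to 0 in the 8 libraries with myoglobin: Cubn, the cobalamin and protein uptake receptor, ran from 0 to 2, Slc34a1, the phosphate transporter, from 0 to 3, and Kap, a proximal tubule secreted protein, from 0 to 2. Of the distal nephron markers 24 of 30 passed the filter, at uneven levels. Calb1 and Tfcp2l1 were at 1600 or more in these 8 libraries, but Foxi1 ran from 6 to 22, Hsd11b2 from 4 to 10 and Emx1 from 0 to 4. Urothelial and squamous markers were present, with summed values of 1773 to 2157 without and 2180 to 2786 with dexamethasone. Among them the keratin gene Krt5 ran from 395 to 929 in the 8 libraries, but Krt16 from 0 to 7. Podocyte markers summed to 716 to 981 without and 734 to 876 with dexamethasone. Markers of endothelium and leukocytes were mixed. Pecam1 ran from 0 to 6, Tie1 from 0 to 1, C1qa from 0 to 3 and Tyrobp from 0 to 6 in the 8 libraries, but Ptprc, the pan-leukocyte antigen CD45, ran from 320 to 444, Cd68, of macrophages, from 62 to 96, and the endothelial genes Ehd3 and Egfl7 from 84 to 121 and from 55 to 80.

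In tubuloids with myoglobin, dexamethasone raised genes that glucocorticoids are known to induce and several genes of sodium uptake and metabolism, shifted the circadian clock genes in both directions, and lowered genes of DNA replication. Of the 14558 genes, limma called 1016 (6.98%) at an adjusted p below 0.05, of which 448 rose (3.08%) and 568 fell (3.9%), and 3226 had an unadjusted p below 0.05. Most changes were small: the median size among called genes was 0.35 on the log2 scale, and 58 genes changed at least 2-fold, 35 upward and 23 downward. The median change over all tested genes was 0.01, and the lowest and highest deciles were at -0.28 and 0.19. In 1924 genes (13.2%) the values of the groups did not overlap, 1023 of them higher (7.03%) and 901 lower (6.19%) with dexamethasone, and 926 of the called genes were among them. Without replicate 4 with dexamethasone 1284 genes were called, 588 higher (4.04%) and 696 lower (4.78%), and 922 genes were called both with and without it. The count fell to 551 without myoglobin replicate 4 and to 617 without myoglobin replicate 2. Of the called genes, 987 were protein coding. Of 993 tested non-coding genes, 13 rose and 10 fell.

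**Figure D1:**
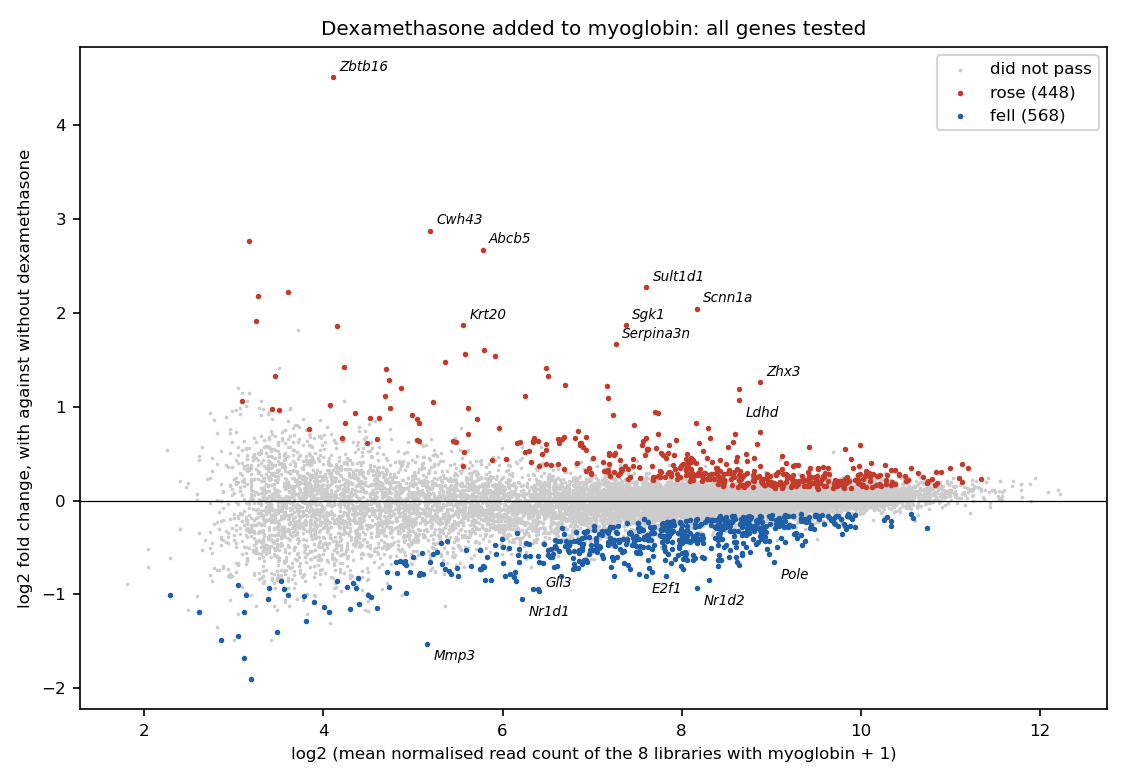
Each point is 1 of the 14558 tested genes, with the log2 of its mean normalised read count over the 8 libraries with myoglobin on the x axis and its log2 fold change with against without dexamethasone on the y axis; red points rose (448), blue points fell (568) and grey points did not pass. The changes past 2 on the log2 scale are all upward, and most called genes lie within 1 of the zero line.

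The gene of the glucocorticoid receptor was lower with dexamethasone. Nr3c1 read 381, 380, 405 and 392 in myoglobin replicates 1 to 4 and 300, 339, 356 and 317 in the replicates with dexamethasone. All 4 values with dexamethasone lay below all 4 without, and the gene fell by 0.25 ± 0.054 on the log2 scale (limma adjusted p 0.0108); vehicle libraries ran from 369 to 398. Nr3c2, the mineralocorticoid receptor, was at 119 to 132 without and 102 to 114 with dexamethasone, which did not pass (limma adjusted p 0.301). Hsd11b2, which inactivates natural glucocorticoids in the distal nephron, ran from 4 to 9 without and from 4 to 10 with dexamethasone, against 127 to 211 with vehicle. Its levels with and without dexamethasone overlapped, both far under those of the vehicle libraries. Hsd11b1, which reactivates these hormones, was at 4 to 9 and 5 to 8. Of the 22 receptor, chaperone and coregulator genes 1 rose (2 without dexamethasone replicate 4) and 1 fell, against 3.08% and 3.9% of all genes. Fkbp5, the chaperone partner that limits receptor activity, was the 1 that rose and Nr3c1 the 1 that fell, with a list median of 0.06.

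Among genes known to be induced by glucocorticoids, 21 of 44 tested members rose and 1 fell, where 3.08% and 3.9% of all genes did, and the list's median change was 0.27 against 0.01 over all genes. Without replicate 4 with dexamethasone the counts were again 21 and 1, and with each other library left out in turn 19 to 20 rose and 0 to 2 fell. Zbtb16, a zinc finger repressor, read 1, 1, 0 and 0 with myoglobin and 29, 29, 44 and 26 with dexamethasone, and 1, 0, 0 and 0 with vehicle. It was close to absent until dexamethasone was added. Its fitted change of 4.51 ± 0.40 depends on the pseudocount (1.98 with a pseudocount of 10 and 6.57 with 0.1), and it passed under each (limma adjusted p 7.87e-06 with the pseudocount of 1). Fkbp5 read 238, 237, 230 and 265 with myoglobin and 493, 548, 595 and 579 with dexamethasone, a rise of 1.19 ± 0.073. The lowest library with dexamethasone was above the highest without. Sult1a1, a phenol sulfotransferase, read 105, 99, 85 and 79 against 201, 185, 193 and 204 and rose by 1.09 ± 0.10 (limma adjusted p 1.31e-05).

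Hif3a, a hypoxia-inducible factor subunit that glucocorticoids induce, read 38, 29, 22 and 29 with myoglobin and 93, 109, 99 and 55 with dexamethasone. Replicate 4 was the lowest of its group but above all libraries without the steroid, and the gene rose by 1.54 ± 0.26 (limma adjusted p 0.00193). Tsc22d3, which encodes the leucine zipper protein GILZ, read 279, 254, 251 and 263 against 357, 354, 354 and 369 and rose by 0.45 ± 0.072. Vehicle values of Tsc22d3 ran from 179 to 231, below both groups. Other members that rose were Rasd1, a small GTPase (0.94 ± 0.11), Klf15 and Klf9, zinc finger factors (0.61 ± 0.098 and 0.40 ± 0.059), and Glul, glutamine synthetase (0.36 ± 0.066). The response of the list was uneven. Dusp1, a MAPK phosphatase, stood at 0.24 ± 0.13, Nfkbia, the NF-kB inhibitor, at 0.10 ± 0.062, Cebpd, a transcription factor, at 0.03 ± 0.072, and Pdk4, a kinase of pyruvate dehydrogenase, at 0.05 ± 0.39, none of which passed. Ccdc69 was the member that fell (54, 56, 59 and 55 against 45, 32, 41 and 37, -0.53 ± 0.13). That call was lost without myoglobin replicate 2, 3 or 4 or dexamethasone replicate 2 (limma adjusted p up to 0.0741).

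Promoters of 3 genes that rose are shown because they hold the receptor's binding motif near the start. RefSeq promoters (GRCm38.p6) from 250 bases before to 50 after the start were matched by symbol for 10984 of 14554 tested symbols (75.5%) and for 39 of the 44 members of the glucocorticoid list (88.6%). On either strand, the full motif, AGAACA and TGTTCT with any 3 bases between them, was in 1 of the 10984 promoters (0.0091%), that of Sgk1, a kinase that raises sodium uptake. The looser core, GNACA and TGTNC with any 3 bases between them, which every full motif holds, was in 46 (0.419%), and in 5 of the 39 list promoters (12.8%). An arm of the motif, AGAACA, was in 15% of all and 17.9% of the list promoters. The runs below are the 250 bases before each start, 5′ to 3′ on the gene's strand, with the motif in capitals. For Sgk1 (chr10:21993640-21993889, plus strand, inside the span the table gives for the gene) the full motif begins 189 bases before the start. For Abcb5 (chr12:118966422-118966671, minus strand) and Serpina3n (chr12:104406458-104406707, plus strand) the core begins 109 and 78 bases before it. The core was also in promoters of other genes that rose and of Cenps and Rbms3, which fell (-0.57 and -0.20). Most of the 46 genes with the core in their promoter did not pass, and the 3 shown were picked among those that rose. A match describes the letters only, and whether the receptor bound there was not measured.
Sgk1: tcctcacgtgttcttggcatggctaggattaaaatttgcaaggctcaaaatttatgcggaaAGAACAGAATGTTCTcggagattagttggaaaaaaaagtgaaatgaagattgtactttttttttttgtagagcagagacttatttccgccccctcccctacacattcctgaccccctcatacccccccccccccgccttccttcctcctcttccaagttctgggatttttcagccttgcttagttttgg
Abcb5: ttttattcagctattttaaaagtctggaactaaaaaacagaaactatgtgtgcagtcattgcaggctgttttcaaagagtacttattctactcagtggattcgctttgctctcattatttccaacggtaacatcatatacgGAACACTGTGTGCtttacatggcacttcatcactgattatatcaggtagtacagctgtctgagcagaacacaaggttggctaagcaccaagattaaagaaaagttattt
Serpina3n: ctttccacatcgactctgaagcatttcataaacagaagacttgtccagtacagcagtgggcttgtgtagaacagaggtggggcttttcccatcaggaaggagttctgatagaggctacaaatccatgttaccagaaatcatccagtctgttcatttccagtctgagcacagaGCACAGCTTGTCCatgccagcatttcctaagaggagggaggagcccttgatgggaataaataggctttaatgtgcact

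These 3 genes were among the 12 largest rises of genes with a mean of at least 30 in either group. Abcb5, an ABC transporter (ENSMUSG00000072791, chr12:118867824-118966421, mm10), read 13, 9, 13 and 19 with myoglobin and 117, 112, 101 and 47 with dexamethasone, with vehicle at 37 to 57. Replicate 4 was well under the other 3 libraries with dexamethasone but above all without, and the rise was 2.67 ± 0.27 (limma adjusted p 2.92e-05, and 1.08e-06 without that library). Serpina3n, a secreted protease inhibitor of the acute phase, read 57, 90, 64 and 82 against 270, 213, 242 and 204. The groups did not overlap, and it rose by 1.67 ± 0.14 (limma adjusted p 3.25e-06); its close relative Serpina3f stood at 0.04 ± 0.24, and reads shared within that gene cluster could be split differently by the counting. Serpina3n was at 36 to 40 with vehicle, below the groups with myoglobin.

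**Figure D2:**
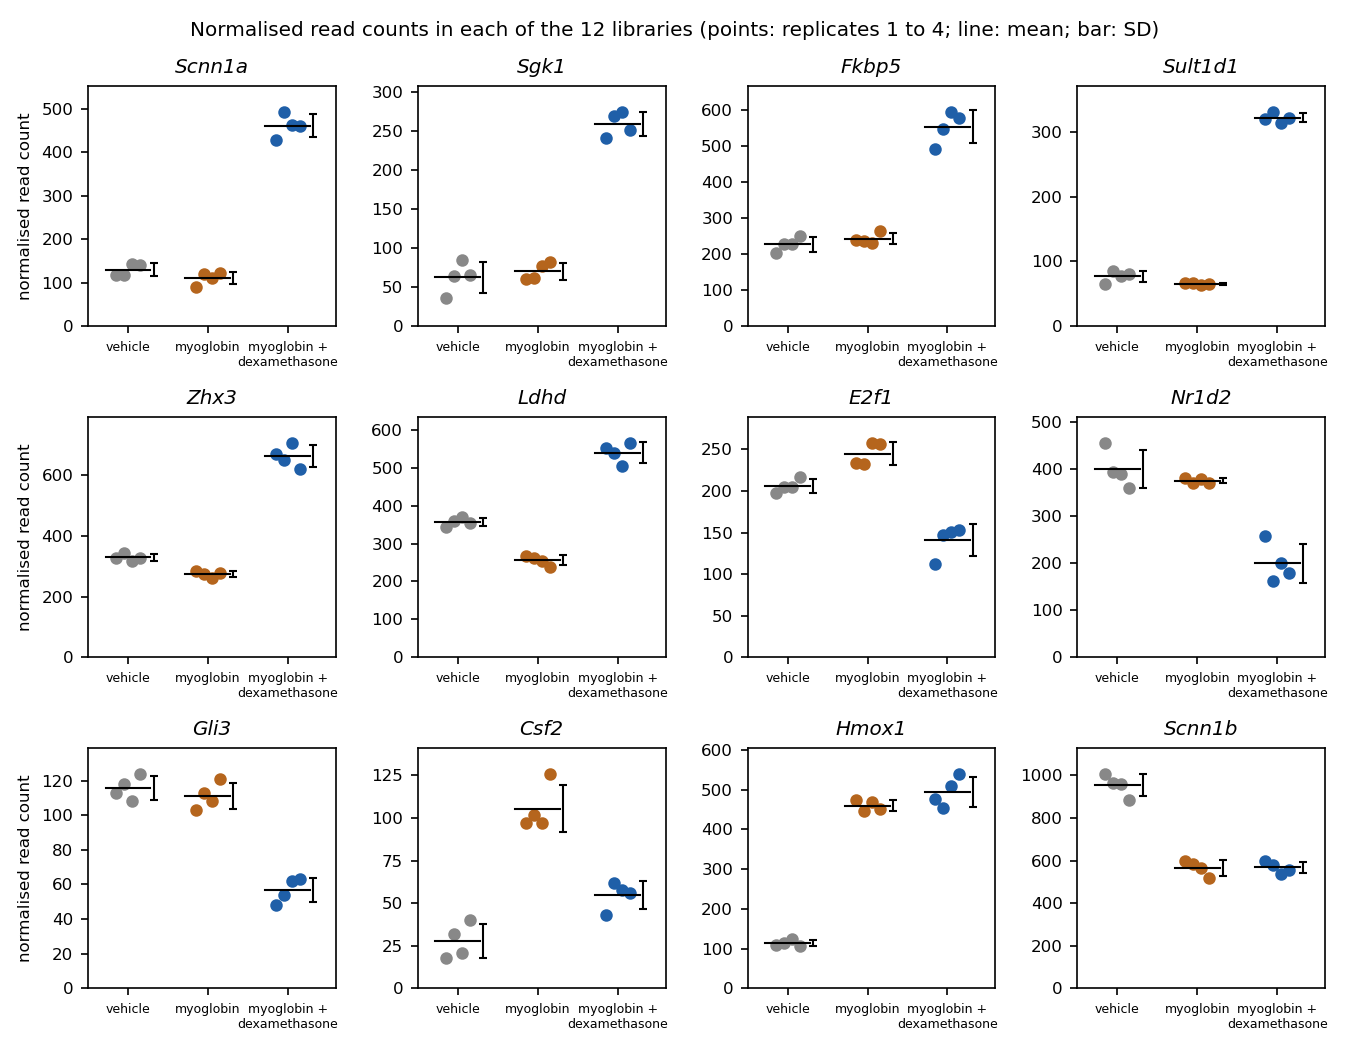
Normalised read counts (y axis, linear, from 0) of 12 genes in the 12 libraries, grouped by treatment on the x axis; points are libraries, the long line is the mean and the bar at its right the SD of 4. Scnn1a, Sgk1, Fkbp5, Sult1d1, Zhx3 and Ldhd are higher in each library with dexamethasone than in any other, E2f1, Nr1d2 and Gli3 are lower, Csf2 lies between vehicle and myoglobin, and Hmox1 and Scnn1b stay near the level with myoglobin.

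Sodium uptake in the distal nephron runs through a channel of 3 subunits, and 1 of them passed. Scnn1a, the alpha subunit (ENSMUSG00000030340, chr6:125320659-125344943, mm10), read 91, 121, 112 and 122 with myoglobin and 428, 493, 462 and 461 with dexamethasone, with vehicle at 117 to 143. The groups lay far apart, with little spread in either, and the rise was 2.05 ± 0.097 (limma adjusted p 4.76e-09). Scnn1b, the beta subunit, read 597, 586, 563 and 516 against 598, 580, 539 and 556 and did not pass (0.01 ± 0.053, limma adjusted p 0.949). Scnn1g, the gamma subunit, read 277, 256, 242 and 211 against 206, 223, 231 and 230 and did not pass (-0.14 ± 0.084, limma adjusted p 0.338). Vehicle libraries held 887 to 1008 of Scnn1b and 426 to 542 of Scnn1g, above every library with myoglobin, with or without dexamethasone. Of the 3 subunits the alpha subunit passed and the others did not, and whether the subunits' changes differ was not tested.

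In the sodium list 7 of 31 tested members rose and 0 fell, against 3.08% and 3.9% of all genes, with a median of 0.11. Genes that regulate the channel or salt cotransport held the rises other than that of Scnn1a. Sgk1, the kinase that keeps the channel at the membrane (ENSMUSG00000019970, chr10:21882184-21999903), read 61, 62, 77 and 82 with myoglobin and 241, 270, 275 and 252 with dexamethasone. The groups were far apart, with vehicle at 36 to 85, and Sgk1 rose by 1.88 ± 0.19 (limma adjusted p 3.13e-05). Usp2, a deubiquitinase known to act on the channel, read 93, 98, 70 and 81 against 195, 203, 213 and 186 and rose by 1.22 ± 0.096 (limma adjusted p 2.29e-06). Its vehicle values, 133 to 147, lay between the groups. The WNK kinases Wnk2 and Wnk4, which set salt cotransport, rose by 0.32 ± 0.042 and 0.21 ± 0.036, Furin, a protease that activates the channel, by 0.28 ± 0.057, and Klhl3, which targets WNK kinases for degradation, by 0.29 ± 0.079 (limma adjusted p 0.0357). The call of Klhl3 was lost without vehicle replicate 2, myoglobin replicate 3 or 4 or dexamethasone replicate 1, 2 or 3 (limma adjusted p up to 0.12). By role, 5 of 10 kinases, ligases and deubiquitinases rose, 1 of 4 proteases, and none of 7 sodium pump genes (1 without dexamethasone replicate 1 or 3) or 2 cotransporters. Nedd4l, the ubiquitin ligase that removes the channel, stood at 0.06 ± 0.036. Slc12a3, the thiazide-sensitive cotransporter, read 493, 505, 469 and 364 against 625, 722, 760 and 424. Replicate 4 was the lowest library in both groups for Slc12a3, its change of 0.44 ± 0.17 did not pass (limma adjusted p 0.131), and without replicate 4 with dexamethasone it did (0.62, limma adjusted p 0.00924). The sodium pump gene Atp1b1 did not pass, and replicate 4 with dexamethasone held its highest value, 2010 against at most 1491 elsewhere.

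Several of the large rises with little spread between libraries were of genes outside the glucocorticoid list. Sult1d1, a sulfotransferase of amines (ENSMUSG00000029273, chr5:87554645-87569027), read 67, 67, 64 and 65 with myoglobin and 320, 331, 314 and 322 with dexamethasone, with vehicle at 65 to 86. The libraries of a group were nearly equal, and the rise was 2.27 ± 0.085 (limma adjusted p 3.46e-10). Zhx3, a zinc finger and homeobox repressor (chr2:160748708-160872998), read 285, 274, 261 and 277 against 669, 649, 706 and 621 and rose by 1.27 ± 0.048 with the same adjusted p. Ldhd, the mitochondrial D-lactate dehydrogenase (chr8:111623785-111630374), read 268, 263, 255 and 239 against 552, 539, 504 and 566 and rose by 1.07 ± 0.050 (limma adjusted p 4.76e-09). For Zhx3 and Ldhd the vehicle libraries, 317 to 343 and 343 to 370, lay above myoglobin and below dexamethasone. Cwh43, which remodels the lipid of membrane anchors, read 7, 8, 10 and 6 against 64, 76, 68 and 46 and rose by 2.88 ± 0.22, a value that depends on the pseudocount (2.04 with 10). Castor2, an arginine sensor of mTORC1, rose by 0.73 ± 0.057, Mlph, a melanosome and granule transport adaptor, by 0.56 ± 0.040, and the uncharacterised gene D630045J12Rik by 0.57 ± 0.037.

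Metabolic lists held a few rises. Slc2a3, a glucose transporter, read 17, 12, 14 and 10 with myoglobin and 44, 40, 32 and 30 with dexamethasone (1.40 ± 0.27). Its groups did not overlap. In the proximal tubule list 2 of 27 tested members rose and 1 fell, with a median of 0.05, a share near the 3.08% and 3.9% of all genes. Among the proximal members that passed were Napsa, an aspartic protease (0.45 ± 0.060), and Fut9, a fucosyltransferase, which fell (-0.44 ± 0.11) but not without myoglobin replicate 2 or 4 or dexamethasone replicate 1 (limma adjusted p up to 0.085). In gluconeogenesis, glycolysis and hypoxia, 4 of 44 rose and 0 fell (1 without myoglobin replicate 3 or dexamethasone replicate 1, median 0.08), among them Pcx, pyruvate carboxylase (0.28 ± 0.060). In fatty acid oxidation, ketone and peroxisome genes, 9 of 44 rose and 1 fell (median 0.10), where 3.08% and 3.9% of all genes did. Pex11a, of peroxisome division, read 200, 196, 183 and 191 against 246, 246, 237 and 229 (0.31 ± 0.056), Pdk2, a pyruvate dehydrogenase kinase, rose by 0.29 ± 0.056, and Acadm and Crat, of fatty acid and carnitine metabolism, by 0.26 ± 0.052 and 0.29 ± 0.059. Vnn1, a pantetheinase, was the member that fell (157, 207, 181 and 227 against 136, 134, 128 and 130, -0.53 ± 0.11), and its vehicle values were 64 to 82. The 9 rises became 5 without myoglobin replicate 2 or 4.

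The circadian clock genes moved in both directions, with 6 of 23 tested members higher and 4 lower, against 3.08% and 3.9% of all genes, and a median of 0.06. The transcription loop of the clock is driven by Arntl and Clock, is closed by the PER and CRY repressors, and is tuned by the nuclear receptors of the Rev-erb (repressing) and ROR (activating) families. Per1 read 283, 280, 295 and 307 with myoglobin and 449, 505, 495 and 464 with dexamethasone, and Per2 read 351, 360, 378 and 365 against 538, 572, 559 and 535. Both repressors lay above every library without dexamethasone, vehicle included, and rose by 0.71 ± 0.065 and 0.60 ± 0.047 (limma adjusted p 1.17e-05 and 2.29e-06). Per3, the third PER gene, went the other way, from 356, 307, 302 and 276 to 227, 210, 218 and 192 (-0.55 ± 0.088, limma adjusted p 0.0016).

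Nr1d1 and Nr1d2, the Rev-erb receptors, held the largest falls of the clock list. Nr1d1 read 108, 92, 93 and 101 with myoglobin and 51, 42, 65 and 35 with dexamethasone (-1.05 ± 0.15, limma adjusted p 0.000791). Nr1d2 read 381, 370, 379 and 369 against 257, 162, 200 and 178 (-0.93 ± 0.11, limma adjusted p 0.000102). Neither gene overlapped between the groups, and the vehicle libraries (103 to 128 and 360 to 455) were near or above those with myoglobin. Cry1, a repressor, rose by 0.55 ± 0.073, Bhlhe41, also a repressor, by 0.60 ± 0.078, and Arntl by 0.33 ± 0.063. Clock and Cry2 did not pass (-0.07 ± 0.057 and 0.01 ± 0.079). Of the 4 output factors Dbp alone passed, with a fall of 0.35 ± 0.099 on the log2 scale (limma adjusted p 0.0436). That call was lost in 9 of the 12 fits that left out 1 library, the exceptions being vehicle replicates 1 and 4 and dexamethasone replicate 3 (limma adjusted p for Dbp up to 0.107).

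**Figure D3:**
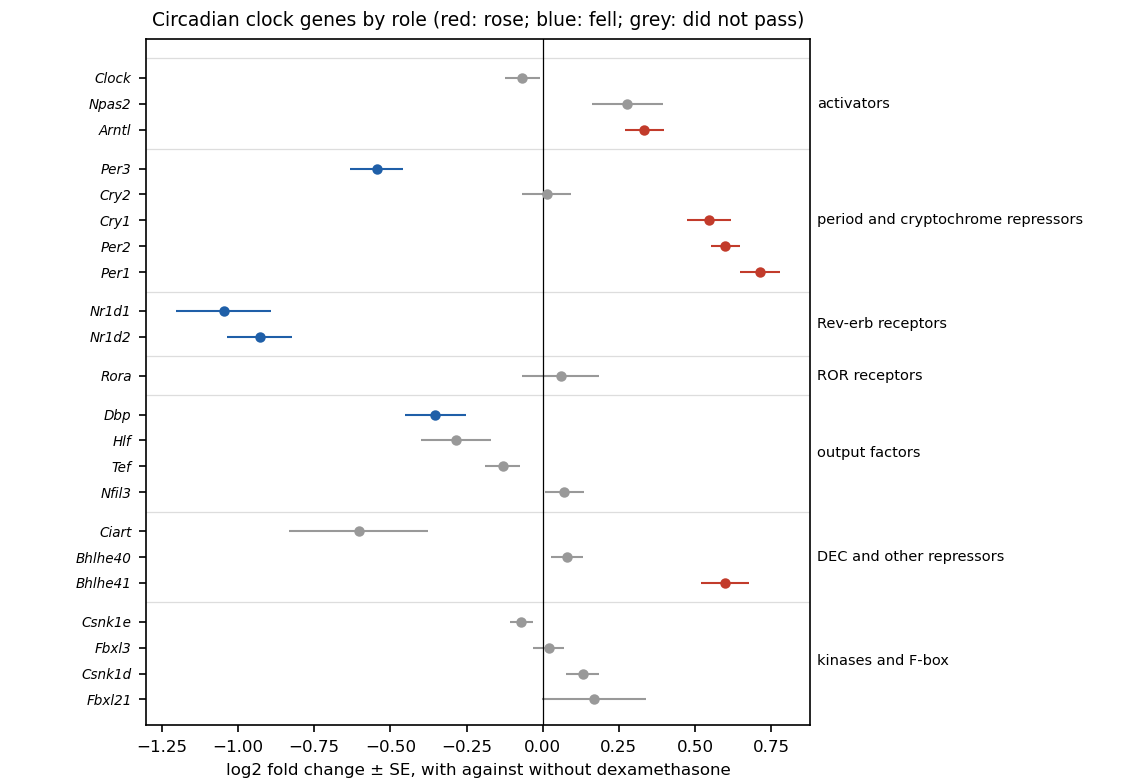
Log2 fold change with against without dexamethasone (x axis, bars are the standard error) of 22 of the 23 tested clock genes, grouped by role; red rose, blue fell, grey did not pass. Per1, Per2 and Cry1 lie to the right and Per3 and the Rev-erb genes Nr1d1 and Nr1d2 to the left.

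DNA replication genes were lower with dexamethasone. In the list of E2F factors, origin firing and DNA synthesis, 43 of 62 tested members fell and 0 rose, where 3.9% of all genes fell, and the list median was -0.41. All 62 members had a negative change, and for 40 the 4 libraries with dexamethasone lay below the 4 without, against 6.19% of all genes. The number that fell was 54 without replicate 4 with dexamethasone, and 28 without myoglobin replicate 4. E2f1, which drives S phase entry (ENSMUSG00000027490, chr2:154559407-154569892), read 234, 232, 258 and 256 with myoglobin and 112, 147, 151 and 153 with dexamethasone, with vehicle at 197 to 217. Every library with dexamethasone was below every other library, and the gene fell by 0.80 ± 0.089 on the log2 scale (limma adjusted p 6.69e-05). Ccne2, a cyclin that starts S phase, read 176, 177, 199 and 176 against 91, 120, 116 and 118 and fell by 0.71 ± 0.093 (limma adjusted p 0.000286). Ccne1, the other cyclin E gene, fell by 0.72 ± 0.10. Of 5 E2F factors 4 fell; E2f3 was the member that did not pass.

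Within the replication list each step of the process held genes that fell. At origin licensing 4 of 5 genes fell (2 without myoglobin replicate 4 or dexamethasone replicate 1), with Cdt1 and Cdc6, the loaders of the helicase, at -0.62 ± 0.14 and -0.60 ± 0.097. Of the MCM helicase subunits that they load, 5 of 6 fell, by less: their changes ran from -0.39 (Mcm5) to -0.22 (Mcm7), and whether they differ from the loaders was not tested. The MCM calls were not stable to single libraries. The 5 falls became 1 without myoglobin replicate 3 or 4 or dexamethasone replicate 1 or 2, 2 without myoglobin replicate 2 or dexamethasone replicate 3, 3 without myoglobin replicate 1 or vehicle replicate 2, 3 or 4, 4 without vehicle replicate 1, and 6 without dexamethasone replicate 4. The limma adjusted p reached 0.136 for Mcm2, 0.099 for Mcm3, 0.0642 for Mcm6 and 0.133 for Mcm7. At origin firing 5 of 8 fell (3 without myoglobin replicate 4), and among polymerases and primase 6 of 8, including Pole, the leading-strand polymerase (597, 622, 644 and 693 against 344, 435, 431 and 415, -0.66 ± 0.075). The 5 tested genes of the fork checkpoint and repair all fell, by 0.61 to 0.80 on the log2 scale, and did so with each library left out in turn. Exo1, an exonuclease, read 275, 287, 289 and 299 against 141, 182, 166 and 172 (-0.80 ± 0.075, limma adjusted p 1.36e-05). Dtl, an adaptor that destroys Cdt1, read 502, 458, 495 and 504 against 270, 339, 317 and 292 (-0.69 ± 0.064, limma adjusted p 1.31e-05), and Brca1 fell as well (-0.69 ± 0.087). The groups did not overlap for Exo1, Dtl or Pole. In the clamp and its loader 2 of 6 genes fell (4 without myoglobin replicate 1, 6 without dexamethasone replicate 4, and 1 without myoglobin replicate 3 or 4 or dexamethasone replicate 1 or 2). In single-strand binding 1 of 3 fell and in nucleotide supply 3 of 6 (2 and 5 without dexamethasone replicate 4). Pcna, the clamp, stood at -0.15 ± 0.078 and Rrm2, a ribonucleotide reductase subunit, at -0.18 ± 0.10.

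**Figure D4:**
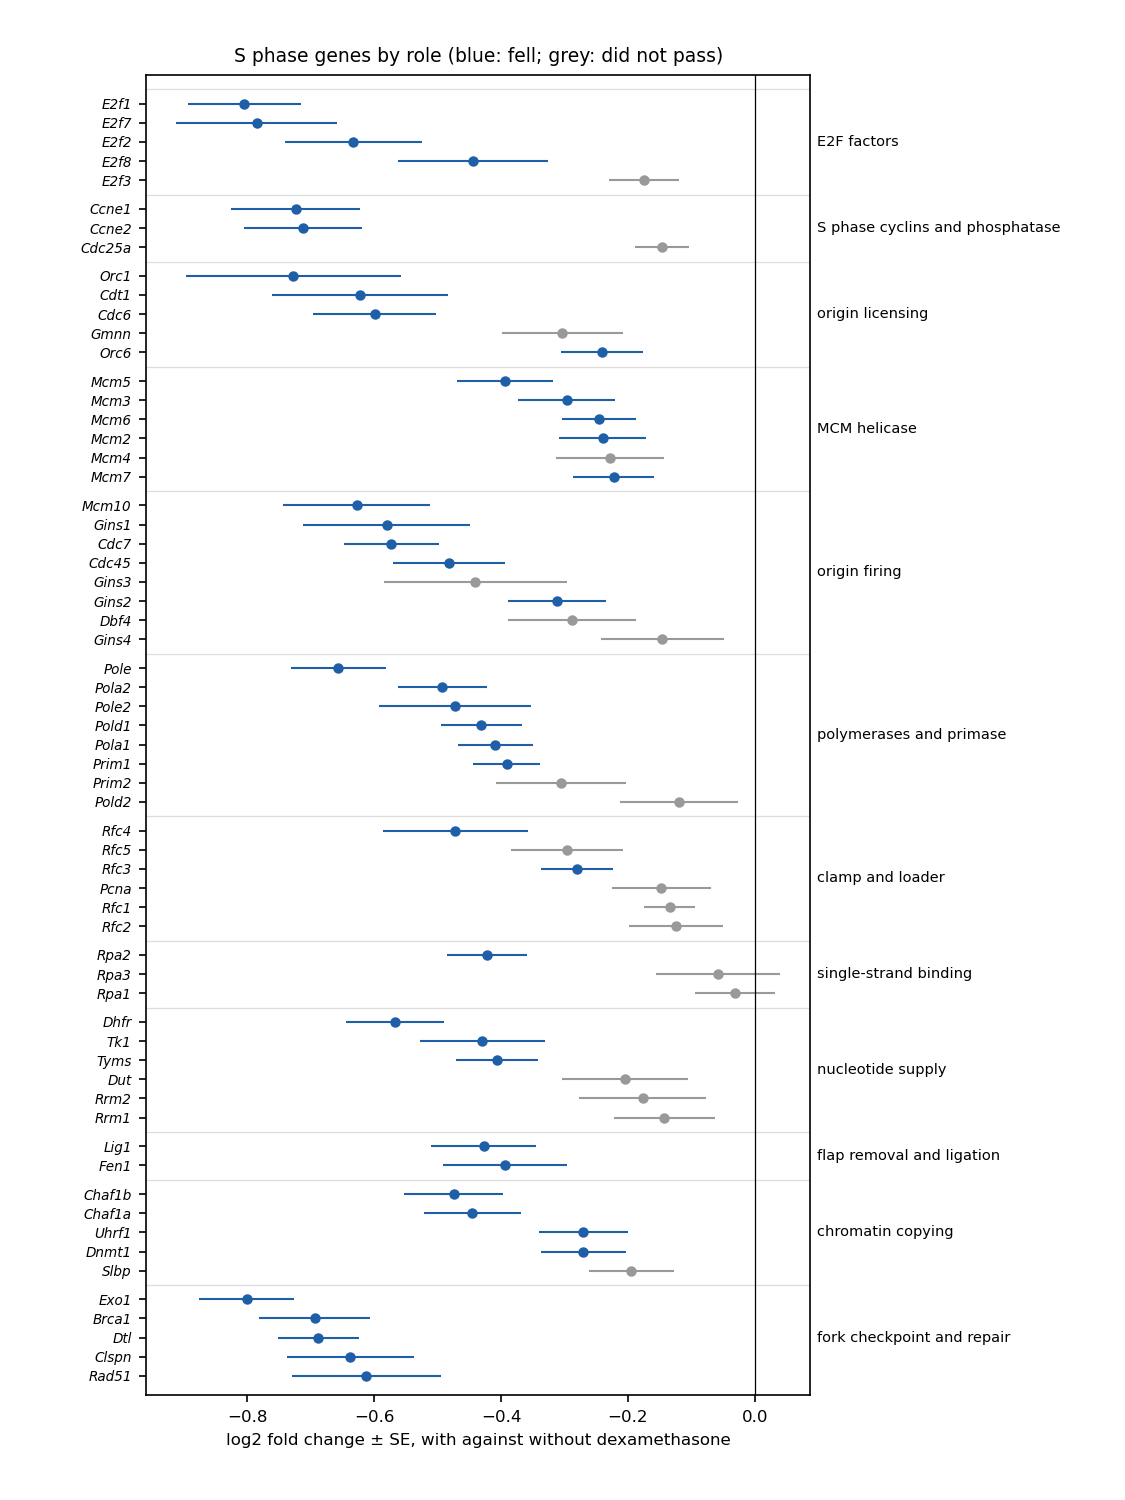
Log2 fold change with against without dexamethasone (x axis, bars are the standard error) of the 62 replication genes, grouped by step; blue fell and grey did not pass. All points lie to the left of zero, with E2f1 and Exo1 at -0.80 and Rpa1 nearest to zero at -0.03.

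Promoters of 3 replication genes that fell are shown because they carry an E2F site. The letters TTTCCCGC or TTTGGCGC, on either strand, were in 363 of the 10984 matched promoters (3.3%) and in 17 of the 50 matched promoters of the replication list (34%), which covers 80.6% of its tested members. Mcm6 (chr1:128359706-128359955, minus strand), a helicase subunit, holds TTTGGCGC 110 and 47 bases before the start, Dtl (chr1:191575545-191575794, minus strand) holds it 8 bases before, and Cdc6 (chr11:98907901-98908150, plus strand) holds TTTCCCGC on the opposite strand, read as GCGGGAAA, 138 bases before. The runs are the 250 bases before each start, 5′ to 3′ on the gene's strand (RefSeq, GRCm38.p6), with the sites in capitals. The sites were also in promoters of other genes that fell and of some that rose, such as Ankrd23 and Coro2a (0.62 and 0.29). Most of the 363 genes with a site did not pass. The share in the replication list describes genes chosen for their role in replication and was not tested. E2F binding was not measured.
Mcm6: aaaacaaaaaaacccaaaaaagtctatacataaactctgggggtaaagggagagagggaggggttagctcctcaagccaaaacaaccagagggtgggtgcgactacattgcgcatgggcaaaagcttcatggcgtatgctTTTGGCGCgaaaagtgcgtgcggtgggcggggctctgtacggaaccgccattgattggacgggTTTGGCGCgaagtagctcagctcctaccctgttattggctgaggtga
Dtl: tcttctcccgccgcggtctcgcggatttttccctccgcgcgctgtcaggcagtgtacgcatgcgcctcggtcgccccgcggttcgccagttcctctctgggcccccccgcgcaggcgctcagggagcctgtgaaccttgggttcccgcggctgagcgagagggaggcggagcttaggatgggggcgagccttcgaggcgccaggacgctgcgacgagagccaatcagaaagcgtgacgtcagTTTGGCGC
Cdc6: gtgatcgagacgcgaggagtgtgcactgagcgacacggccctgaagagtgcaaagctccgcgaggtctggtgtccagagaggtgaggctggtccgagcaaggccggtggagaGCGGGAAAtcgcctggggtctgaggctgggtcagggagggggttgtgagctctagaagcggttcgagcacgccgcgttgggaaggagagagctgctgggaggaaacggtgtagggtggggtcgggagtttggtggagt

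Genes of later cell cycle steps were lower as well, with counts that depended on the fit. In the G2 and mitosis list 11 of 40 fell and 0 rose, where 3.9% and 3.08% of all genes did. Of its members 39 had a negative change, with a median of -0.28. Plk4, the kinase of centriole copying, read 298, 311, 297 and 348 with myoglobin and 211, 247, 241 and 225 with dexamethasone (-0.44 ± 0.070, limma adjusted p 0.00139), and Kif15, a spindle motor, read 364, 421, 405 and 436 against 216, 318, 287 and 271 (-0.58 ± 0.11). The groups did not overlap for either gene. Mki67, the proliferation antigen, read 1710, 1954, 1856 and 1971 against 1350, 1607, 1429 and 1755; these overlapped, with a change of -0.29 ± 0.078 (limma adjusted p 0.034) whose call was lost without myoglobin replicate 2, 3 or 4 or dexamethasone replicate 1 or 3 (limma adjusted p up to 0.109). The number that fell was 22 without replicate 4 with dexamethasone and 31 with array weights, which let libraries differ in spread. It was 6 without myoglobin replicate 2 or 3, 5 without myoglobin replicate 4 and 7 without dexamethasone replicate 1. In bulk RNA, fewer dividing cells and less of these RNAs per cell cannot be told apart.

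Among regulators of G1, 2 of 24 rose and 4 fell, against 3.08% and 3.9% of all genes, with a median of -0.04. The members moved in ways that their names do not give. Mxd4 and Rbl2, a MYC antagonist and a pocket protein of resting cells, rose by 0.32 ± 0.047 and 0.21 ± 0.045. Rbl1, the pocket protein gene of cycling cells (-0.28 ± 0.048), Cdkn2c, a CDK inhibitor (-0.37 ± 0.069), and Mxd3 (-0.73 ± 0.17) fell, the last losing its call without myoglobin replicate 2 (limma adjusted p 0.059), where 2 members of the list fell. The CDK inhibitor genes Cdkn1a and Cdkn1c did not pass (0.03 ± 0.098 and -0.46 ± 0.17), and Cdkn1c passed without myoglobin replicate 1 or without dexamethasone replicate 3 (limma adjusted p 0.0472 and 0.0457).

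Of the inflammatory effectors that myoglobin-treated tubuloids express, most did not pass, and those that did moved in both directions. In the cytokine list 5 of 38 fell and 3 rose, against 3.9% and 3.08% of all genes, with a median of -0.13. Csf2, a growth factor of myeloid cells, read 97, 102, 97 and 126 with myoglobin and 43, 62, 58 and 56 with dexamethasone, with vehicle at 18 to 40. Its values with dexamethasone lay between the other groups, and it fell by 0.94 ± 0.21 on the log2 scale (limma adjusted p 0.0138, and 0.0547 without myoglobin replicate 4). Ccl20, a chemokine, read 301, 289, 311 and 278 against 221, 221, 205 and 230 with vehicle at 66 to 78, and fell by 0.43 ± 0.070 (limma adjusted p 0.00185). Cxcl10, a T cell chemokine, read 51, 46, 59 and 57 against 31, 28, 38 and 26 with vehicle at 33 to 41 (-0.78 ± 0.15). Il34, a ligand of the macrophage growth factor receptor, rose by 0.39 ± 0.060 and Ptges, a prostaglandin E synthase, by 0.28 ± 0.049. Tnf itself read 454, 452, 469 and 463 against 415, 438, 425 and 440. These did not overlap, yet its change of -0.10 ± 0.042 did not pass (limma adjusted p 0.188). The number of cytokine genes that fell was 8 without replicate 4 with dexamethasone, 3 without myoglobin replicate 2 and 2 without myoglobin replicate 4.

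Genes of the NF-kB, immediate early, interferon and acute phase lists were counted as well, where 3.08% of all genes rose and 3.9% fell. Of 43 NF-kB subunits, inhibitors and regulators 2 rose and 0 fell (median 0.01): Tnfrsf1b, a TNF receptor (0.28 ± 0.043), and Zfp36, which destabilises cytokine messages (0.27 ± 0.053). Of 43 immediate early and MAPK feedback genes 1 rose, Spred2, and 0 fell (median -0.00078). Without dexamethasone replicate 4 these were 2 and 2, and 1 fell without myoglobin replicate 1 or vehicle replicate 1. In the interferon list 2 of 48 rose, 1 when any vehicle or myoglobin library or dexamethasone replicate 1 was left out, and 2 fell. Isg20, an RNA exonuclease, rose from 147, 151, 144 and 149 to 228, 231, 249 and 213 (0.63 ± 0.071, limma adjusted p 7.43e-05). Ifit2, an interferon-induced RNA sensor, fell (-0.71 ± 0.13), as did Cxcl10, given above. Isg20 lay above all vehicle libraries as well (123 to 146). In the acute phase list 2 of 32 rose (4 without dexamethasone replicate 4 and 5 without replicate 3) and 0 fell. The members that rose were Serpina3n and Fga, the fibrinogen alpha chain, which read 16, 25, 15 and 12 against 39, 41, 42 and 35 (1.21 ± 0.23). Lcn2, the iron-trapping injury marker, read 1253, 1299, 1271 and 1224 against 1460, 1395, 1314 and 1947; it missed the threshold with all libraries (limma adjusted p 0.0848) and passed without replicate 4 with dexamethasone (0.0224), which held its highest value, and without dexamethasone replicate 3 (0.0345).

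Most genes of the stress and injury lists did not pass. Over all genes 3.08% rose and 3.9% fell, so the counts below are not low beside those shares in every list. Hmox1, which breaks down haem, read 475, 446, 468 and 451 against 476, 453, 510 and 540 with vehicle at 106 to 124, and did not pass (0.10 ± 0.062, limma adjusted p 0.352). Of 46 NRF2, haem and iron genes 4 rose (2 without myoglobin replicate 2) and 0 fell (1 without dexamethasone replicate 4), with a median of 0.11, with Gclc, of glutathione synthesis, at 0.26 ± 0.057. Of 48 integrated stress and unfolded protein genes 2 rose and 2 fell (median 0.07), and 0 rose without myoglobin replicate 2, 3 or 4. The members that fell were Stc2, a secreted glycoprotein (555, 539, 506 and 523 against 437, 402, 379 and 419, -0.38 ± 0.051), and Aldh1l2, a mitochondrial folate enzyme (489, 468, 424 and 477 against 366, 320, 325 and 232, -0.60 ± 0.11). Both lay between the vehicle libraries (305 to 335 and 135 to 167) and those with myoglobin. Of 41 injury and failed-repair genes 3 rose and 0 fell (median 0.11), 2 falling without dexamethasone replicate 4 and 1 without myoglobin replicate 1, and Havcr1, the kidney injury molecule, did not pass (5 to 24 against 13 to 18). Krt20, an intermediate filament gene of injured tubules and of urothelium, read 7, 21, 23 and 29 against 37, 95, 66 and 91 and rose by 1.87 ± 0.40 (limma adjusted p 0.0103). Within each group replicate 1 was the lowest library for Krt20. Of 39 p53 targets 3 rose (0 without myoglobin replicate 2, 1 without replicate 3 or 4) and 1 fell (2 without dexamethasone replicate 4). Of 45 cell death genes 3 rose (5 without dexamethasone replicate 4) and 1, Bcl2l11, fell. That call was lost in 8 of the 12 fits that left out 1 library (limma adjusted p up to 0.0962), all but those without vehicle replicate 1, 2 or 4 or dexamethasone replicate 4, and the falls in the list then ran from 0 to 2. Of 18 heat shock genes, taken as a sign of handling, 0 rose and 0 fell.

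The 12 largest falls held genes of signalling, matrix, guidance and the clock. Gli3, a factor of Hedgehog signalling (ENSMUSG00000021318, chr13:15463235-15730026), read 103, 113, 108 and 121 with myoglobin and 48, 54, 62 and 63 with dexamethasone, with vehicle at 108 to 124. It was lower in each library with dexamethasone than in any other, and fell by 0.96 ± 0.10 on the log2 scale (limma adjusted p 4.86e-05). Slit2, a secreted guidance cue, read 502, 370, 380 and 366 against 266, 209, 231 and 190 (-0.85 ± 0.12, limma adjusted p 0.000529). Pla2g4c, a phospholipase A2, read 35, 29, 27 and 38 against 15, 12, 15 and 14 (-1.14 ± 0.17), and Cbfa2t3, a corepressor, 73, 71, 75 and 74 against 49, 45, 48 and 25 (-0.84 ± 0.17). Pask, a metabolic kinase, was among the 12 called genes with the smallest p (319, 320, 297 and 323 against 180, 207, 191 and 199, -0.69 ± 0.053, limma adjusted p 1.96e-06). Mmp3, a matrix protease, had the largest fall by this rule (35, 35, 81 and 54 against 19, 12, 32 and 9, -1.52 ± 0.39), but its call was lost without myoglobin replicate 3 or 4 or dexamethasone replicate 2 or 4 (limma adjusted p up to 0.0927).

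Of 40 YAP and TGF-beta targets 3 fell and 0 rose, against 3.9% and 3.08% of all genes (median -0.03): Ccn1 and Ccn2, secreted matrix proteins induced by YAP, and Amotl2, a YAP inhibitor that YAP induces. Ccn1 read 209, 266, 255 and 295 against 143, 156, 130 and 172 (-0.76 ± 0.10, limma adjusted p 0.000381), Ccn2 fell by 0.33 ± 0.065 and Amotl2 by 0.21 ± 0.045 on the log2 scale. Of 52 matrix, integrin and protease genes 6 fell and 3 rose (median 0.03). Timp3, a protease inhibitor, read 276, 346, 309 and 352 against 169, 240, 177 and 190 (-0.73 ± 0.096, limma adjusted p 0.000301), and Thbs1 and Col4a2, of the matrix, fell by 0.35 ± 0.064 and 0.30 ± 0.047. The 6 falls became 3 without myoglobin replicate 2 or 4 or dexamethasone replicate 3, and the 3 rises became 0 without myoglobin replicate 1, 3 or 4. Markers of fibroblasts and pericytes moved with these genes. Of 10 tested 3 fell and 0 rose (median -0.32), their summed value ran from 842 to 930 with myoglobin and from 581 to 809 with dexamethasone, Col1a1 was at 2 to 4 and Lum at 0 to 4 in these 8 libraries, and 0 members fell without myoglobin replicate 1, 2 or 4 or dexamethasone replicate 1, 2 or 4. Their part in the matrix changes was not tested.

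Markers of nephron segments and of other cells were read to see what else moved. Of 24 tested distal nephron markers 5 rose and 0 fell, against 3.08% and 3.9% of all genes (median 0.13). Their summed value ran from 9275 to 10054 with myoglobin and from 10879 to 11209 with dexamethasone. Atp6v0d2, a proton pump subunit of intercalated cells, read 234, 252, 214 and 221 against 354, 370, 317 and 368, with vehicle at 269 to 335 (0.61 ± 0.080, limma adjusted p 0.000286). Tfcp2l1, a transcription factor of the collecting duct, read 1913, 1860, 1720 and 1682 against 2410, 2298, 2217 and 2176 (0.34 ± 0.058), above all vehicle libraries. Foxi1, the factor that specifies intercalated cells, read 6, 6, 8 and 6 against 22, 12, 14 and 9, with vehicle at 32 to 53. The values of Foxi1 did not overlap, but they were small, and the call (0.97 ± 0.26, limma adjusted p 0.0326) was lost without myoglobin replicate 1, 2 or 4, without dexamethasone replicate 1 or 3, and with a pseudocount of 10. The 5 rises became 3 without myoglobin replicate 1, 2 or 4 or dexamethasone replicate 3, and 2 without dexamethasone replicate 1.

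The counts that follow stand beside 3.08% of all genes that rose and 3.9% that fell. Of 8 tested podocyte markers 1 rose, Synpo, and 0 fell (2 without myoglobin replicate 1 and 1 without dexamethasone replicate 3, median -0.39). Synpo lost its call without myoglobin replicate 1, 3 or 4 or dexamethasone replicate 1, 2 or 3 (limma adjusted p up to 0.0989). Summed values of the podocyte markers were 716 to 981 without and 734 to 876 with dexamethasone. None of 5 endothelial markers passed (231 to 269 against 250 to 284). Of 4 tested leukocyte markers Ptprc rose (377, 340, 332 and 320 against 428, 444, 413 and 408, 0.31 ± 0.063, limma adjusted p 0.00767), and the other 3 had negative changes that did not pass. The 12 leukocyte markers that missed the filter were at 19 or less in every library, Csf1r, the macrophage growth factor receptor, included. Ptprc was at 401 to 484 with vehicle. Of 8 tested urothelial and squamous markers 2 rose and 0 fell: Krt20, given above, and Trp63, the basal cell factor (1088, 1041, 1070 and 1042 against 1315, 1207, 1235 and 1353, 0.27 ± 0.046). Tight junction genes gave 2 rises (1 without myoglobin replicate 1, 3 or 4 or dexamethasone replicate 1) and 1 fall of 30 (0 without myoglobin replicate 2 or 4, median 0.09), with Cldn1, a sealing claudin, at 687, 716, 686 and 694 against 887, 877, 880 and 901 (0.35 ± 0.046, limma adjusted p 0.000301), and of 11 metallothionein and zinc transporter genes 2 rose, 0 without myoglobin replicate 1, and 0 fell.

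**Figure D5:**
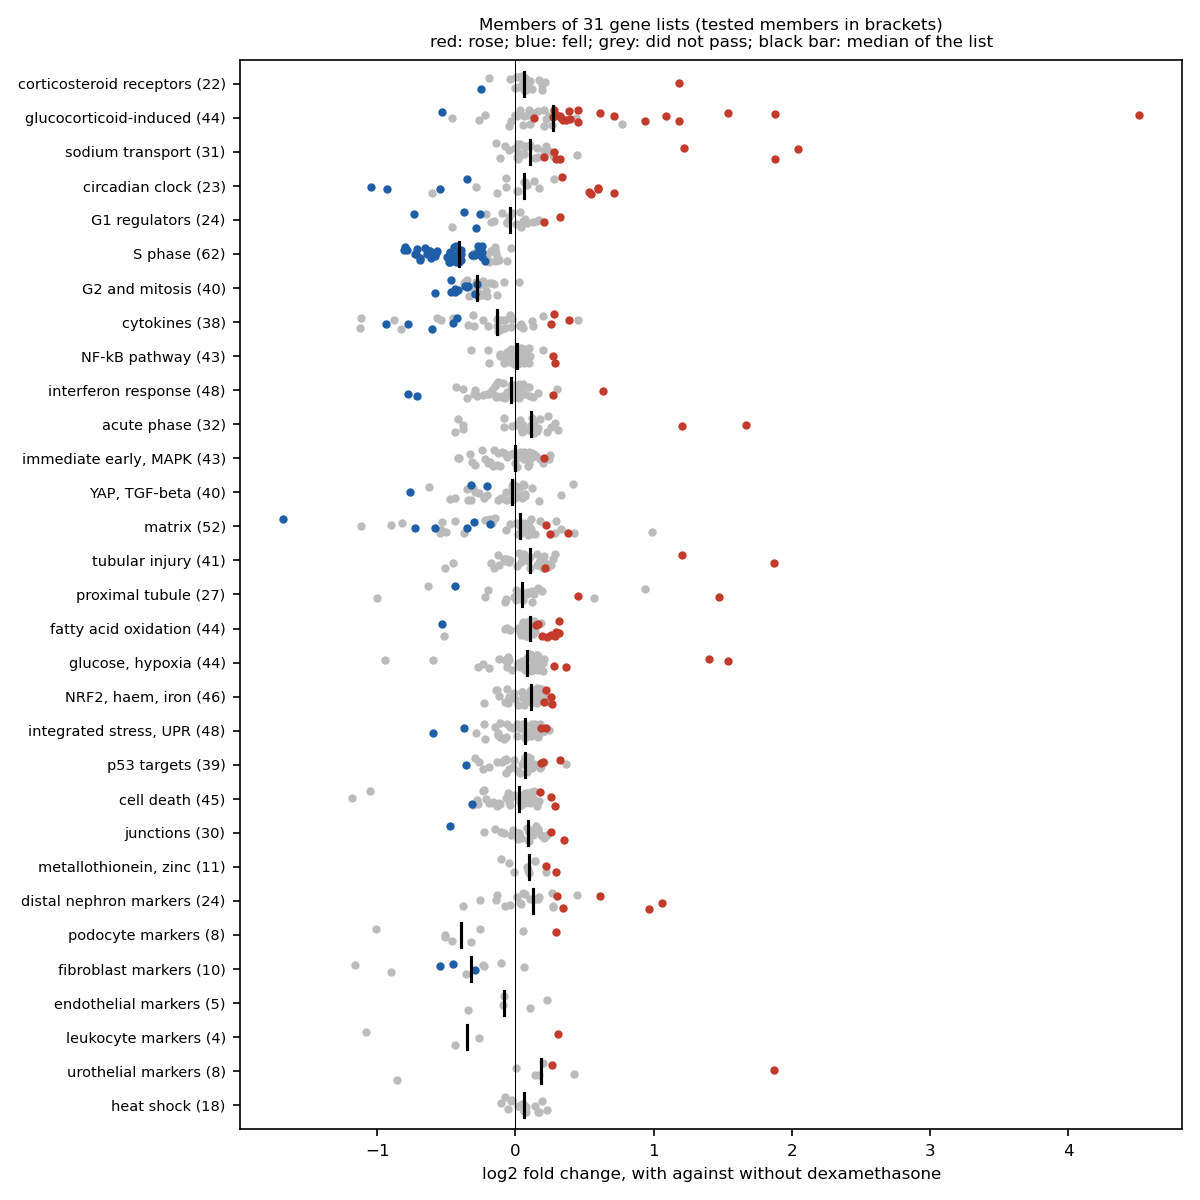
Log2 fold change with against without dexamethasone (x axis) of the tested members of the 31 gene lists, 1 row per list with the number tested in brackets; red rose, blue fell, grey did not pass, and the black bar is the median. The glucocorticoid list reaches furthest to the right, and the replication list lies wholly to the left of zero, with 43 of 62 members blue.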

How the data were processed

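Messenger RNA of 12 tubuloid libraries was sequenced, 4 each with vehicle, with myoglobin, and with myoglobin and dexamethasone. Tools named in the submitters' processing notes, without their roles, are STAR 2.7.10a, DESeq2 1.36.0, featureCounts 2.0.3, Trimmomatic 0.39 and Picard 2.27.4, with mm10 as the build; the counting's use of strand is not given in the sources used here. The deposited values are a normalised score: from the values, the authors scaled the reads of each gene by 1 factor per library, then rounded. The steps between whole numbers gave factors of 0.904, 0.971, 1.04 and 0.568 in dexamethasone replicates 1 to 4 and 0.996 to 1.11 elsewhere. Fewer reads give less precise values, so low genes of the library with 0.568 are the least precise.

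Because these are not counts, limma-trend (limma 3.58.1 in R 4.3.3) was fitted to log2 of the value plus 1, with 3 groups, 1 shared spread over 12 libraries and the deposited scaling. Fold changes of low genes are understated on this scale. P-values are two-sided, Benjamini-Hochberg adjusted over 14558 genes, with 0.05 as the threshold for passing. The verbs rose and fell stand for passing genes, errors are standard errors, and ranges are over the 4 libraries of a group. Comparisons with vehicle share the myoglobin libraries, so vehicle values stand beside the others without a test. The script was tested on simulated data.

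The gene lists (31 with 1034 genes, of which 993 are in the table and 918 were tested) and the members of the comparison were chosen with earlier results of these data known, so lists are described by counts and medians without a test. Roles within the replication, clock and sodium lists were assigned after the values were seen. Named were 20 genes of interest, the 12 largest rises and falls among called genes without overlap and with a mean of at least 30, leaving out predicted genes, the 12 smallest p-values, up to 5 called members of each list with the smallest p and the leading one in the opposite direction, the 2 leading members where fewer than 2 were called, all members of short lists, and 8 non-coding genes. These came to 165, of which 124 were called. Other genes of the lists, such as Per3, Cry1, Arntl, Dbp, Rasd1, Klf9, Slc12a3, Mki67 and Cdc6, were named after their values were seen. Coordinates are those of the table (mm10), and 20592 genes (98.9%) have the same in GENCODE M21. Tables and plots used Python 3.11.15, numpy 2.4.6, pandas 2.3.3 and matplotlib 3.10.9. Alternatives were 2 other pseudocounts, no low-value filter, 2 other scalings, the 8 libraries alone, array weights, a replicate block, and each library left out. Results for a few genes are not reported here.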

Additional observations from a re-analysis of the deposited data

Results flagged for a closer look

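In 22 of the groups of 4 libraries over the 165 named genes, 1 library lay further from the rest than its group's range usually allows. Chance alone puts about 1 in 20 such groups there. Each gene gave 1 group with and 1 without dexamethasone, so the share found was close to that. Among the libraries with dexamethasone, replicate 4 did so for Acsl4 (2056 against 1715 to 1738 in the other 3), Glul (1356 against 1052 to 1088), Krt5 (929 against 521 to 574), Slc39a4 (1189 against 893 to 931) and Mt1 (369 against 243 to 257), where it was the highest, and for Cbfa2t3 (25 against 45 to 49), where it was the lowest. Replicate 4 is the library with the fewest reads, and its part in these values was not tested. Replicate 1 with dexamethasone was lowest for E2f1 (112 against 147 to 153) and Ccne2 (91 against 116 to 120) and highest for Il34 (300 against 290 to 291). Replicate 3 with dexamethasone was highest for Zbtb16 (44 against 26 to 29), Ehd3 (121 against 104 to 106) and Pidd1 (209 against 179 to 184).

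Among the libraries with myoglobin alone, replicate 1 was highest for Slit2 (502 against 366 to 380) and lowest for Bcl2l11 (248 against 257 to 258) and Cdkn2c (234 against 262 to 267). Replicate 2 was lowest for Gadd45g (110 against 131 to 133) and for the non-coding gene Gm11827 (0 against 5 to 6). Replicate 3 was highest for Ccne2 (199 against 176 to 177) and Foxi1 (8 against 6 in each other library) and lowest for Pask (297 against 319 to 323). Replicate 4 was highest for Slc39a14 (843 against 742 to 753) and lowest for Slc39a10 (797 against 825 to 826).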

How the results depend on the processing

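Of the 20 alternatives run, none turned the direction of a called value among the 165 named genes. Directions of the other called genes were not compared in this way. The 1016 calls (448 higher, 568 lower) became 639 (274 and 365) with the 8 libraries with myoglobin alone, 1625 (740 and 885) with array weights and 1788 (749 and 1039) with the replicate block. The first setting leaves fewer samples to estimate the spread. For the others the cause was not tested. Scaled to library totals the calls were 1101 (384 higher, 717 lower), and with quantile normalization 1091 (497 and 594). With 1 library left out the calls ran from 551 to 1284, those higher from 254 to 588 and those lower from 297 to 696. The lowest counts came without myoglobin replicate 4 (551) and replicate 2 (617), and the calls upward also dropped to 291 without myoglobin replicate 3. Glucocorticoid-induced genes that rose, 21 with all libraries, ran from 19 to 21 with 1 library left out and from 17 to 25 over the other settings. Replication genes that fell, 43 with all libraries, ran from 28 to 54 and from 31 to 55. The share of glucocorticoid promoters with the full motif, 2.56%, was 17.9% for its arm AGAACA, which is shorter by construction.

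The labels do not say that replicate numbers pair the samples, and not every same-numbered pair deviated together: with and without dexamethasone the correlations were 0.648, 0.112, -0.0679 and 0.253 for numbers 1 to 4. Over all 3 groups 10 of 12 such pairs were over 0.1 (range -0.0769 to 0.656), both exceptions at number 3, and not every library correlated best with its own number. With the block 34 of 40 G2 and mitosis genes and 52 of 62 replication genes fell, and 31 and 55 with array weights. Of the 165 named genes, 93 of the 124 called ones stayed called in every alternative. Among named genes the block gave 7 that gained and 0 that lost the call. The 8 libraries alone lost 21, and leaving out myoglobin replicate 4 lost 25, replicate 2 lost 20, replicate 3 lost 16 and replicate 1 lost 15. With 4 libraries a group and 3.25 M reads in replicate 4 with dexamethasone, changes of genes with few reads are the least certain, and a gene that did not pass is not shown to be unchanged.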

Other observations

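Several genes outside the report's groups rose with non-overlapping values. Tshr, the thyrotropin receptor, read 77, 52, 45 and 33 with myoglobin and 153, 125, 145 and 91 with dexamethasone, with vehicle at 80 to 108 (1.33 ± 0.21, limma adjusted p 0.00142). Replicate 4 was the lowest library of Tshr in all 3 groups. Cuzd1, a zona pellucida domain protein, read 66, 47, 61 and 71 against 169, 142, 135 and 130 (1.23 ± 0.13, limma adjusted p 4.56e-05). Ace, the angiotensin-converting enzyme, read 121, 153, 113 and 126 against 226, 206, 233 and 232, above the vehicle range of 141 to 168 (0.81 ± 0.092, limma adjusted p 9.05e-05). Npr1, the receptor of atrial natriuretic peptide, read 32, 33, 28 and 34 against 71, 70, 60 and 56 (0.99 ± 0.13, limma adjusted p 0.000381). Slco4c1, a renal transporter of organic anions, read 126, 145, 121 and 178 against 277, 275, 289 and 252 (0.95 ± 0.10). These genes were chosen after their values were seen.

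Among non-coding genes, AU015791 read 45, 41, 52 and 52 with myoglobin and 135, 94, 150 and 141 with dexamethasone, with vehicle at 104 to 124 (1.42 ± 0.14, limma adjusted p 1.62e-05). Eldr, a lncRNA near Egfr, read 48, 44, 58 and 70 against 27, 37, 29 and 39 (-0.71 ± 0.16), and that call was lost without myoglobin replicate 4 (limma adjusted p 0.061).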
